A study of Mus musculus with 6 samples.

Results

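The eukaryotic translation initiation factors are the proteins that bring a ribosome, the initiator methionine tRNA and an mRNA together at a start codon. The genes described here are the protein-coding mouse genes whose symbol begins with Eif and a digit, without Eif2s3y, which makes 54 of the 48432 genes in the deposited table. Of the table's genes 21682 are protein-coding. The family was followed in hepatocytes of FVB mice in 3 groups of 2 samples: adults fed DDC for 4 weeks, embryos at day 18 of gestation (E18), and normal fed adults. No genotype is labelled beyond the strain. Feeding DDC, which disturbs heme synthesis, damages hepatocytes and bile ducts. Each E18 sample pooled about 8 embryos. The labels name no age for the adults and no animal for a sample, so p-values measure only the spread between these samples. Polyadenylated RNA was sequenced, and levels are in TPM (transcript shares, corrected for length and scaled to a fixed total per sample). Fold changes are differences of log2(TPM + 1), given ± SE.

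Initiation runs through a sequence of steps that the members divide between them. The factor eIF2 carries the initiator tRNA to the small ribosomal subunit, eIF2B recharges it with GTP, and 4 kinases (Eif2ak1 to Eif2ak4) phosphorylate it under heme shortage, viral RNA, stress of the endoplasmic reticulum or amino acid shortage, which slows initiation in general. The large complex eIF3 and the small factors eIF1 and eIF1A hold the scanning ribosome open. In eIF4F the protein eIF4E binds the mRNA cap, eIF4A unwinds RNA and eIF4G joins them, and the 4E-BPs (Eif4ebp1 to Eif4ebp3) block eIF4E until the kinase mTORC1 phosphorylates them. The factors eIF5 and eIF5B complete subunit joining, eIF5A helps elongating ribosomes, and eIF6 keeps free large subunits from joining. Liver makes most plasma proteins and therefore translates heavily. By role, 5 members belong to eIF1 and eIF1A, 5 to eIF2 and its loading, 5 to eIF2B, 4 to the eIF2 kinases, 14 to eIF3, 12 to the cap binding and helicase group, 4 to the inhibitors of eIF4E, and 5 to the late factors.

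Start-proximal DNA was not available for Eif4e3, Eif4ebp1 and Eif6. It is shown for 3 other members, Eif2d and Eif2ak3 (higher with DDC in TPM, a call lost in some settings) and Eif5a2 (higher at E18). The stretches are the 250 bases before the RefSeq transcript start on GRCm38.p6, plus strand. They are chr1:131152957-131153206 for Eif2d, chr6:70844265-70844514 for Eif2ak3 and chr3:28781027-28781276 for Eif5a2. Capitals mark every match, on either strand, to 5 motifs that were searched: TGACNNNGC (antioxidant response element), TGATGNAA (ATF4 response element), CACGTG (E-box), CCAAT and GGGCGG (GC box).
Eif2d: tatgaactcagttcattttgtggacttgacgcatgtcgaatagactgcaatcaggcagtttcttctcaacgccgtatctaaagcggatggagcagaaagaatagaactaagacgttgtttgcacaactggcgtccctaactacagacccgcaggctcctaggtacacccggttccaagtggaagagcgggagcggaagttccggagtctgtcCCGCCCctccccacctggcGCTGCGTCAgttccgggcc
Eif2ak3: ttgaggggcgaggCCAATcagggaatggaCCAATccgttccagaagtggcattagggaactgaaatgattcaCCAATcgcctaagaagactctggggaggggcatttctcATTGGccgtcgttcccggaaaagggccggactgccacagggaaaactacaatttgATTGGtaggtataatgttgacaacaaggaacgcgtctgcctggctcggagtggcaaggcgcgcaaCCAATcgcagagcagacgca
Eif5a2: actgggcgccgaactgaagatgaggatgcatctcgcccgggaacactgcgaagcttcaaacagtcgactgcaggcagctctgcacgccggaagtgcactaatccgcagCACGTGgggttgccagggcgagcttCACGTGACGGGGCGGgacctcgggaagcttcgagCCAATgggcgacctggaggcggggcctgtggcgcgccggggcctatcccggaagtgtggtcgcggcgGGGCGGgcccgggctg
In the Eif2d stretch 1 antioxidant response element and 1 GC box matched, both on the minus strand. The Eif2ak3 stretch held 6 CCAAT matches. In Eif5a2 there were 2 E-boxes, 1 CCAAT, 2 GC boxes and 1 antioxidant response element, which overlaps an E-box and a GC box. Of all 32851 RefSeq windows of this length, the antioxidant element was in 10.2%, the ATF4 element in 3.45%, the E-box in 6.02%, CCAAT in 33.8% and the GC box in 32.7%. Among the 55 windows of the 42 members with an entry, the shares were 12.7%, 1.82%, 20.0%, 25.5% and 67.3% in the same order. A match describes letters only and is not a binding site.

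The comparison depends on how samples are scaled to each other. The 50 highest genes took 26.9 and 26.0% of all TPM with DDC, 24.3 and 25.1% at E18 and 33.2 and 37.3% in normal fed samples. The median log2 fold change over the 14307 genes tested was 0.45 for DDC fed against normal fed, 1.06 for E18 against normal fed and -0.55 for DDC fed against E18. A second scaling, by median ratio, sets the typical gene equal between samples and takes these shifts out, and its values stand beside results it changes. Normal fed samples differed most from each other: the median absolute log2 difference over the members was 0.48, against 0.10 between the DDC fed and 0.13 between the E18 samples, and normal fed sample 1 was below sample 0 for 40 of the 54 members. Across the 53 members tested the difference between the samples of a group had a Spearman rho with total exon length of -0.18 for DDC fed, -0.30 for E18 and -0.28 for normal fed samples. Across all 14273 tested genes with a length it was -0.18 for DDC fed, -0.09 for E18 and -0.39 for normal fed samples. These are descriptions across genes of the same libraries. Summed hepatocyte markers were at 51486 and 49322 TPM with DDC, 14716 and 9706 TPM at E18 and 63848 and 66403 TPM in normal fed samples, with Alb and Trf listed at 0 in all 6 samples and Fgb at 0 at E18. Markers of other cells were present too. Calls among them stand beside 34.2% of all genes tested that were higher with DDC and 63% at E18. Erythroid markers summed to 8.68 and 7.98 TPM with DDC, 13046 and 24436 at E18 and 26.2 and 16.9 in normal fed samples, and neutrophil markers to 3.02 and 4.15 TPM with DDC, 56745 and 67613 at E18 and 0.370 and 0.302 in normal fed samples. Macrophage markers summed to 1311 and 1607 TPM with DDC, 4047 and 5202 at E18 and 161 and 133 in normal fed samples, with all 12 higher with DDC as at E18 than in normal fed samples. Stellate cell and fibroblast markers summed to 328 and 301 TPM with DDC, 274 and 248 at E18 and 24.9 and 12.1 in normal fed samples, and 8 of 8 were higher with DDC. Endothelial markers summed to 181 and 190.4 TPM with DDC, 455 and 450.0 at E18 and 46.4 and 15.9 in normal fed samples, and 8 of 8 were higher with DDC. Cholangiocyte markers summed to 70.6 and 89.1 TPM with DDC, 139 and 89.6 at E18 and 3.86 and 3.40 in normal fed samples, and 2 of 5 were higher with DDC. The part of these cells in the results was not tested, and in such bulk samples fewer cells of a type and less RNA per cell cannot be told apart.

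**Figure D1:**
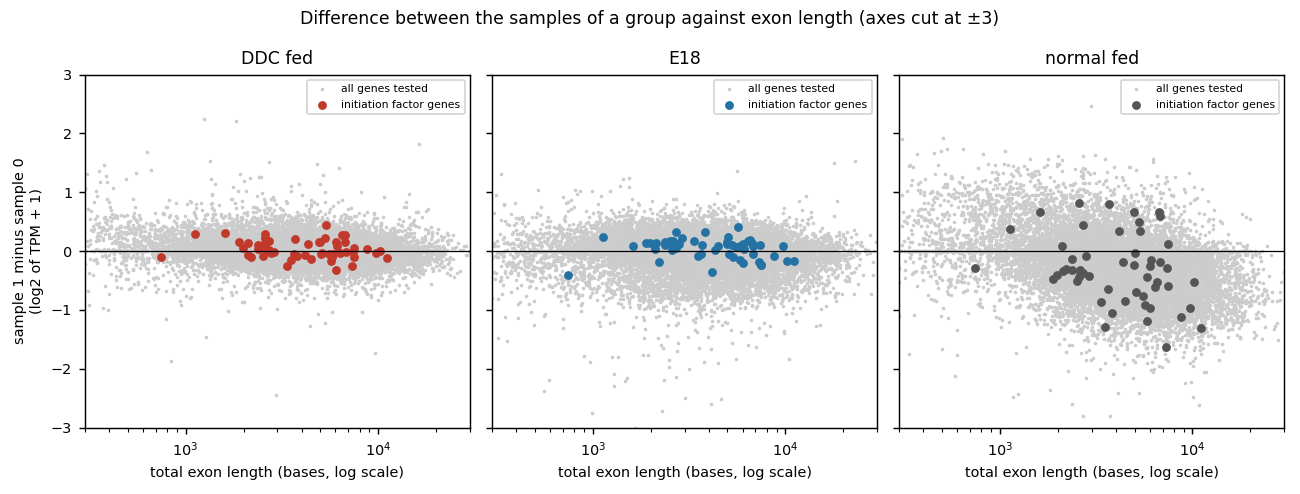
Each panel plots, for 1 group, the log2 difference between its samples (sample 1 minus sample 0) against total exon length in bases on a log axis, with initiation factor genes in colour and all genes tested in grey. Over the members rho is -0.18 in the DDC fed, -0.30 in the E18 and -0.28 in the normal fed panel, and the normal fed members scatter most widely.

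In every group the family spanned a wide range of levels. Eif5a was the most abundant member of all 3 groups, at 681 and 730.3 TPM with DDC, 1109 and 1227 TPM at E18 and 625 and 502 TPM in normal fed samples. Eif1, the scanning factor, had 473 and 453 TPM with DDC, 723 and 743 TPM at E18 and 455 and 483 TPM in normal fed samples. In normal fed samples the 4E-BP gene Eif4ebp3 reached the same range, with 558 and 459 TPM, and 48 members averaged at least 10 TPM. At the other end Eif4e1b, an oocyte form of eIF4E, was listed at 0 in all 6 samples and did not enter the test. Eif5a2, a second gene for eIF5A, averaged under 1 TPM in both adult groups. All members together held 0.520 and 0.540% of TPM with DDC, 0.844 and 0.869% at E18 and 0.517 and 0.467% in normal fed samples. Reads of near-identical copies (Eif1a and Eif1ax, Eif3j1 and Eif3j2, Eif2s3x and its Y-linked copy, and genes with processed pseudogenes such as Eif5a and Eif3e) may be split by the authors' counting, and their values are uncertain.

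**Figure D2:**
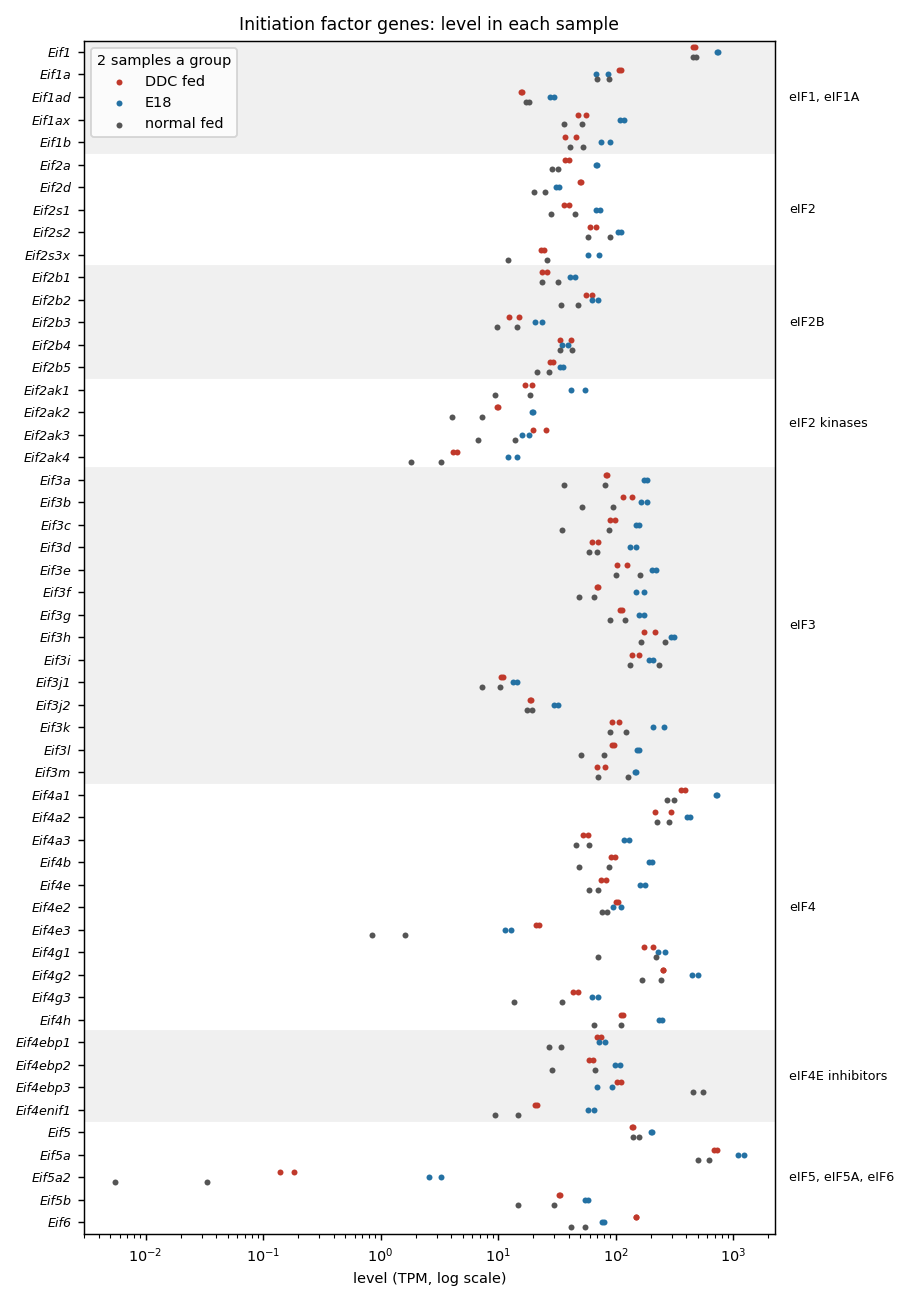
Each row is a member, grouped by role, and each point a sample on a log axis of TPM. Eif4e1b, listed at 0, is not drawn. Most E18 points lie to the right in their row, while Eif4ebp3 has its normal fed points at 558 and 459 TPM, far to the right of both other groups.

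With DDC few members passed the test. Of the 53 members tested 6 rose, Eif4e3, Eif6, Eif4ebp1, Eif2d, Eif2ak3 and Eif4enif1, and 1 fell, Eif4ebp3 (limma, adjusted p under 0.05 over all genes). That is 11.3% of the members higher and 1.89% lower, where 34.2% of all genes tested were higher and 3.07% lower (37.3% in either direction). The median log2 fold change of the members was 0.33, beside 0.45 for all genes. Both DDC fed samples lay above both normal fed samples for 28 members and below for 2, and the share of all genes was 62.4% above and 8.99% below. None of the 14 eIF3 subunits, 5 eIF2B subunits and 5 eIF1 and eIF1A genes passed, and at an unadjusted p under 0.05 11 members of all roles were higher and 1 lower. With median-ratio scaling Eif4e3, Eif6 and Eif4ebp1 rose and 9 members fell, beside 2907 higher and 1700 lower of all 14307 genes. The added falls were Eif1ad, Eif2b1, Eif2b4, Eif3d, Eif3g, Eif3j2, Eif4a3 and Eif5, whose log2 fold changes under that scaling ran from -0.82 (Eif1ad) to -0.59 (Eif3g), and 4 of them, Eif3d, Eif3g, Eif3j2 and Eif4a3, had positive values in TPM. Single samples moved the values. Without normal fed sample 0 the median log2 fold change was 0.43 for the members and 0.64 for all genes, and without sample 1 it was 0.14 and 0.32. Without DDC fed sample 0 it was 0.36 and 0.45, and without sample 1 it was 0.28 and 0.43. Dropping normal fed sample 0 raised the number of calls among all genes and, by a larger factor, among the members. The small number of members called higher with DDC thus depended on that sample.

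**Figure D3:**
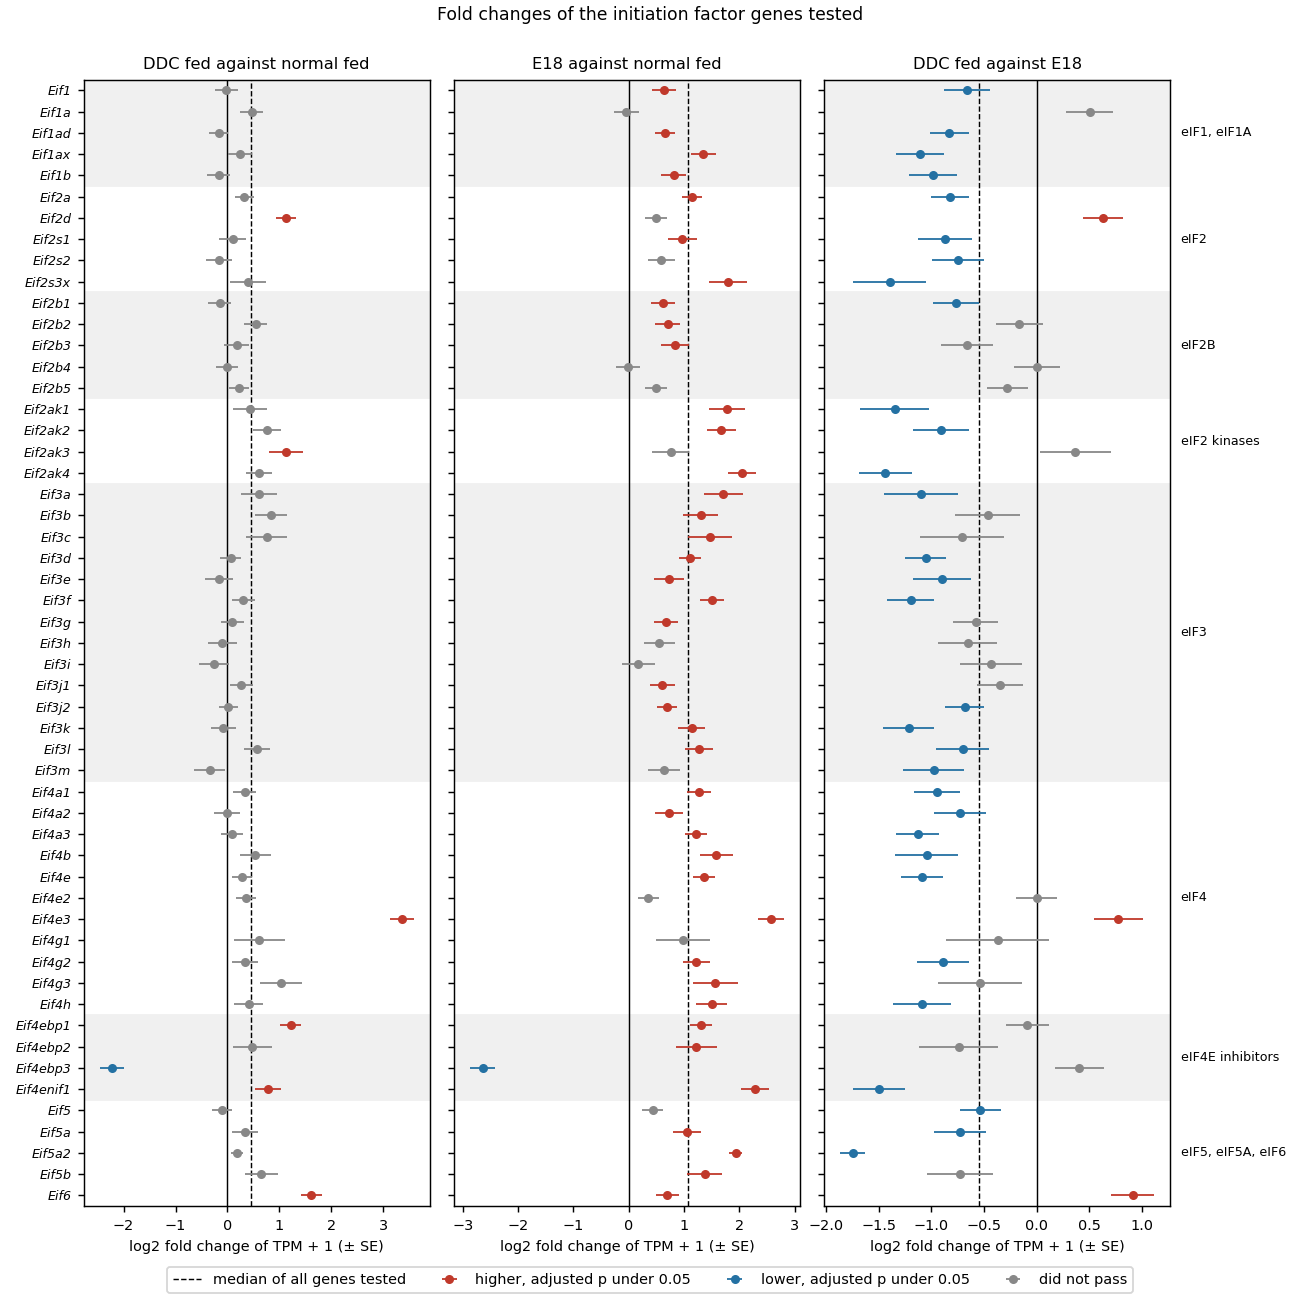
Points are log2 fold changes of TPM + 1 with SE bars for the 53 members tested, in 3 comparisons, coloured by the limma call, with the dashed line at the median of all genes tested. Most DDC values lie at or left of the dashed line at 0.45, the E18 values scatter on both sides of 1.06, and Eif4ebp3 stands apart on the left of both panels against normal fed.

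The highest and the lowest log2 fold change among the 53 members, with DDC as at E18, belonged to Eif4e3 and Eif4ebp3, genes of the cap binding step, except that Eif5a2 was highest at E18 with a pseudocount of 0.1 (4.66) and Eif4enif1 with a pseudocount of 5 (1.98). Eif4e3, a divergent member of the eIF4E family, was at 22.2 and 20.9 TPM with DDC, 11.4 and 12.9 TPM at E18 and 1.62 and 0.848 TPM in normal fed samples. All DDC fed and E18 samples were above both normal fed samples. It rose with DDC (log2 fold change 3.36 ± 0.23, adjusted p = 0.000157) and at E18 (log2 fold change 2.58 ± 0.23, adjusted p = 6.81e-05); after median-ratio scaling the values were 2.94 with DDC and 1.70 at E18. Eif4e itself was at 74.9 and 83.3 TPM with DDC, 162 and 176 TPM at E18 and 71.0 and 59.2 TPM in normal fed samples. The E18 samples were the highest. Eif4e did not pass with DDC (log2 fold change 0.28 ± 0.20, adjusted p = 0.303). At E18 Eif4e was higher in TPM (1.37 ± 0.20, adjusted p = 0.000715), with 0.18 (adjusted p = 0.353) under median-ratio scaling. Eif4e2, a cap binding homolog linked to repression of translation, had 101 and 105 TPM with DDC, 112 and 95.0 TPM at E18 and 77.1 and 83.7 TPM in normal fed samples. It passed in neither comparison with normal fed (0.35 ± 0.19, adjusted p = 0.190 with DDC, and 0.35 ± 0.19, adjusted p = 0.132, at E18). Under median-ratio scaling the E18 value of Eif4e2 was -0.83 (adjusted p = 0.0182). The level of Eif4e3 relative to Eif4e within a sample, which scaling a whole sample does not change, was 0.297 and 0.250 with DDC, 0.0702 and 0.0732 at E18 and 0.0228 and 0.0143 in normal fed samples.

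Among the 4E-BPs, Eif4ebp1 and Eif4ebp3 moved in opposite directions with DDC. Eif4ebp3 was at 111 and 103 TPM with DDC, 92.8 and 69.6 TPM at E18 and 558 and 459 TPM in normal fed samples. The normal fed samples lay above all others. It fell with DDC (log2 fold change -2.23 ± 0.23, adjusted p = 0.000590) and at E18 (log2 fold change -2.64 ± 0.23, adjusted p = 5.80e-05), also with median-ratio scaling (-2.92 and -3.83). Eif4ebp1, the best studied 4E-BP and a known target of ATF4, was at 74.9 and 70.0 TPM with DDC, 82.0 and 72.3 TPM at E18 and 34.2 and 27.4 TPM in normal fed samples. Both DDC fed and both E18 samples were above the normal fed samples. It rose with DDC (log2 fold change 1.22 ± 0.20, adjusted p = 0.00410), and by 0.55 with median-ratio scaling, though without DDC fed sample 0 its adjusted p was 0.0539. At E18 its value was 1.30 ± 0.20 (adjusted p = 0.000982) in TPM and 0.13 (adjusted p = 0.491) with median-ratio scaling. Eif4ebp2 had 63.6 and 59.2 TPM with DDC, 109 and 98.3 TPM at E18 and 66.7 and 28.6 TPM in normal fed samples, so that 1 normal fed sample lay above and 1 below the DDC fed samples. The log2 fold change of Eif4ebp2 was 0.48 ± 0.37 (adjusted p = 0.348) with DDC and 1.22 ± 0.37 (adjusted p = 0.0211) at E18. The DDC value of Eif4ebp2 without normal fed sample 0 was 1.07 (adjusted p = 0.00185). Without E18 sample 0 or sample 1 its E18 value did not pass (adjusted p = 0.0878 and 0.0650), and with median-ratio scaling it was 0.044.

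The makeup of the inhibitor pool differed between groups. Eif4ebp3 made up 44.4 and 44.4% of the summed TPM of the 3 genes with DDC, 32.7 and 29.0% at E18 and 84.7 and 89.1% in normal fed samples. Eif4ebp1 made up 30.1 and 30.1% with DDC, 28.9 and 30.1% at E18 and 5.19 and 5.32% in normal fed samples. The summed level of the 3 genes over that of Eif4e was 3.33 and 2.79 with DDC, 1.75 and 1.36 at E18 and 9.28 and 8.70 in normal fed samples. The 3 groups do not overlap in this ratio, and the samples of each group differ less than the groups do. Of the single genes, only Eif4ebp3 over Eif4e lay below the normal fed samples. Its means were 1.36 with DDC, 0.483 at E18 and 7.81 in normal fed samples. Eif4ebp1 over Eif4e was higher with DDC (mean 0.920) than in normal fed samples (0.472), and its E18 values (mean 0.458) overlapped the latter. For Eif4ebp2 over Eif4e the normal fed values (0.939 and 0.484) enclosed those of both other groups. With 2 samples a group an exact permutation test of a single ratio cannot reach 0.05, so no p is given. These are mRNA ratios, and protein levels and phosphorylation were not measured. Eif4enif1, a partner of eIF4E that carries it into the nucleus and to processing bodies, was at 21.3 and 20.7 TPM with DDC, 57.9 and 65.3 TPM at E18 and 14.9 and 9.37 TPM in normal fed samples. The groups did not overlap, with E18 the highest. It was higher with DDC at the edge of the threshold (log2 fold change 0.78 ± 0.25, adjusted p = 0.0473) and rose at E18 (log2 fold change 2.28 ± 0.25, adjusted p = 0.000168). With median-ratio scaling the DDC value was 0.14 (adjusted p = 0.539) and the E18 value 1.14 (adjusted p = 0.00105). Leaving out either DDC fed sample or either E18 sample ended the DDC call (adjusted p from 0.0881 to 0.217).

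**Figure D4:**
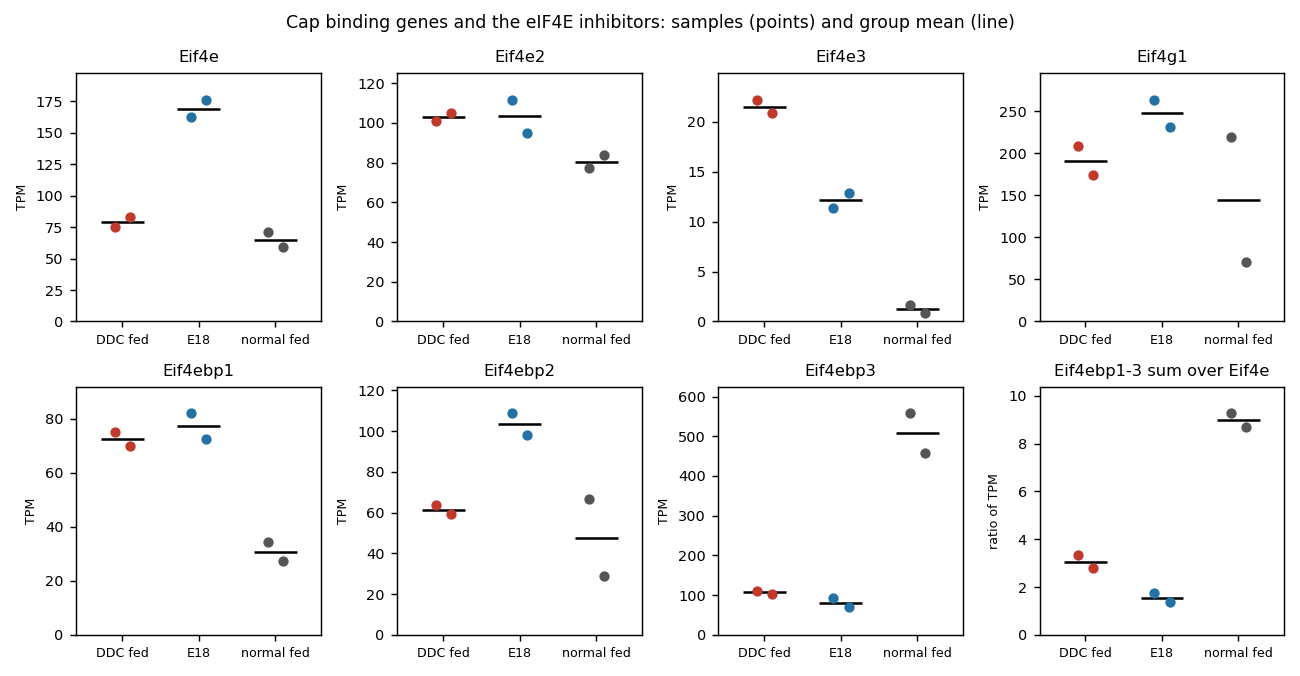
Points are samples and lines group means, in TPM from 0, for 4 cap binding genes and the 4E-BPs, and the last panel gives the summed TPM of Eif4ebp1, Eif4ebp2 and Eif4ebp3 over that of Eif4e. The ratio is 3.33 and 2.79 in DDC fed samples, 1.75 and 1.36 at E18 and 9.28 and 8.70 in normal fed samples, and Eif4g1 shows the wide gap between the normal fed samples.

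The scaffold and helicase of eIF4F were not called with DDC. Eif4g1, the main scaffold, was at 208 and 175 TPM with DDC, 264 and 231 TPM at E18 and 219 and 70.3 TPM in normal fed samples. The DDC fed samples lie between the normal fed samples, and neither comparison passed (0.61 ± 0.49, adjusted p = 0.360 with DDC, and 0.98 ± 0.49, adjusted p = 0.107, at E18). Leaving out normal fed sample 0, the DDC value was 1.43 (adjusted p = 0.00162), and without normal fed sample 1 it was -0.20. The E18 value of Eif4g1 without normal fed sample 0 was 1.80 (adjusted p = 0.000245). Eif4g2, a scaffold that does not bind eIF4E, had 255 and 254 TPM with DDC, 499.8 and 446 TPM at E18 and 242 and 167 TPM in normal fed samples. The value of Eif4g2 was 0.34 ± 0.25 (adjusted p = 0.326) with DDC and 1.23 ± 0.25 (adjusted p = 0.00364) at E18, and 0.031 at E18 with median-ratio scaling. Eif4g3, a homolog of Eif4g1, was at 47.6 and 43.6 TPM with DDC, 70.8 and 62.7 TPM at E18 and 34.9 and 13.5 TPM in normal fed samples, with 1.03 ± 0.40 (adjusted p = 0.0876) for DDC and 1.57 ± 0.40 (adjusted p = 0.0102) for E18. Without normal fed sample 0 the DDC value of Eif4g2 was 0.60 (adjusted p = 0.0214). The DDC value of Eif4g3 without normal fed sample 0 was 1.68 (adjusted p = 0.000583). At E18 it did not pass without E18 sample 0 (adjusted p = 0.0514) and was 0.41 with median-ratio scaling.

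The helicase genes were abundant. Eif4a1 was at 357 and 387 TPM with DDC, 710.4 and 722 TPM at E18 and 315 and 276 TPM in normal fed samples. The E18 samples were the highest and the DDC fed samples lay above the normal fed ones. Its log2 fold change was 0.33 ± 0.22 (adjusted p = 0.269) with DDC and 1.28 ± 0.22 (adjusted p = 0.00155) at E18. Eif4a2 was at 217 and 293 TPM with DDC, 432 and 405 TPM at E18 and 224 and 284 TPM in normal fed samples, with -0.0022 ± 0.25 (adjusted p = 1) for DDC and 0.73 ± 0.25 (adjusted p = 0.0333) for E18. Under median-ratio scaling the E18 values were 0.082 for Eif4a1 and -0.47 for Eif4a2, so the second changes direction. Eif4a2 also did not pass at E18 without normal fed sample 0, either DDC fed sample or either E18 sample (adjusted p from 0.0601 to 0.134). Its E18 call was also lost with no filter, with the compared groups alone and with an exon-length correction (adjusted p from 0.0505 to 0.0688). The level of Eif4a2 over Eif4a1 was 0.607 and 0.758 with DDC, 0.609 and 0.561 at E18 and 0.711 and 1.03 in normal fed samples, and the DDC fed and normal fed ranges overlap.

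Among the eIF2 kinases different genes led in the DDC fed and the E18 samples. Eif2ak3, the kinase PERK of the endoplasmic reticulum, was at 25.3 and 20.0 TPM with DDC, 18.5 and 16.0 TPM at E18 and 14.0 and 6.70 TPM in normal fed samples. The DDC fed samples lay above the other 4. Of the 4 kinases it alone passed with DDC (log2 fold change 1.13 ± 0.34, adjusted p = 0.0385), while its E18 value did not pass (log2 fold change 0.76 ± 0.34, adjusted p = 0.0768). Its DDC call was lost with median-ratio scaling (0.50, adjusted p = 0.173) and without either DDC fed or either E18 sample (adjusted p from 0.0629 to 0.201). Eif2ak4, the amino acid sensor GCN2, had 4.47 and 4.11 TPM with DDC, 14.5 and 12.2 TPM at E18 and 3.26 and 1.82 TPM in normal fed samples. Both E18 samples lay above all adult samples, and it rose at E18 (log2 fold change 2.05 ± 0.25, adjusted p = 0.000300), also with median-ratio scaling (1.06). Eif2ak2, the kinase PKR of double-stranded RNA, was at 10.1 and 9.86 TPM with DDC, 19.9 and 19.3 TPM at E18 and 7.24 and 4.06 TPM in normal fed samples. The 3 groups did not overlap, with E18 highest, and it rose at E18 (log2 fold change 1.67 ± 0.27, adjusted p = 0.00112; 0.60 with median-ratio scaling). With DDC the values were 0.61 ± 0.25 (adjusted p = 0.0984) for Eif2ak4 and 0.76 ± 0.27 (adjusted p = 0.0628) for Eif2ak2. Without normal fed sample 1 the DDC value of Eif2ak3 was 0.65 (adjusted p = 0.0457), and without normal fed sample 0 its E18 value was 1.24 (adjusted p = 0.00155). Without normal fed sample 0 the DDC values of Eif2ak4 and Eif2ak2 passed, with 0.91 (adjusted p = 0.00645) for Eif2ak4 and 1.12 (adjusted p = 0.00156) for Eif2ak2.

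Eif2ak1, the heme-regulated kinase HRI that is best known in red cell precursors, was at 19.3 and 17.1 TPM with DDC, 41.4 and 55.1 TPM at E18 and 18.6 and 9.39 TPM in normal fed samples. The E18 samples lay above all adult samples. Its mRNA did not pass with DDC (log2 fold change 0.43 ± 0.33, adjusted p = 0.342), and 1 of the DDC fed values lies between the normal fed samples. Its DDC value without normal fed sample 0 was 0.88 (adjusted p = 0.0128). At E18 it was higher in TPM (log2 fold change 1.78 ± 0.33, adjusted p = 0.00232), and 0.63 (adjusted p = 0.0552) with median-ratio scaling. In the same E18 samples all 14 erythroid markers tested were higher than in normal fed samples, beside 63% of all genes. The summed level of the 15 erythroid markers in the table was 13046 and 24436 TPM at E18. Of these 15, 7 were at 0 in both normal fed samples and could pass the filter only through other samples. The count of 14 was thus partly fixed by the filter. The part of erythroid cells in the Eif2ak1 value was not tested. As a share of the 4 kinases summed, Eif2ak1 was 32.7 and 33.5% with DDC, 43.9 and 53.7% at E18 and 43.1 and 42.7% in normal fed samples. Eif2ak3 made up 42.8 and 39.2% with DDC, 19.6 and 15.6% at E18 and 32.6 and 30.5% in normal fed samples. Kinase activity was not measured.

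Of eIF2 and its loading factors, Eif2d was the 1 of 5 that passed with DDC in TPM. Of all genes 34.2% were higher and 3.07% lower. Without normal fed sample 0, Eif2a and Eif2s3x were higher too and Eif2s2 was lower, and on the median-ratio scale 0 of 5 passed. Eif2d, which can deliver tRNA to the ribosome without eIF2 and works in recycling, was at 50.7 and 49.9 TPM with DDC, 31.0 and 33.2 TPM at E18 and 24.9 and 20.3 TPM in normal fed samples. The DDC fed samples stood above all others, and the E18 samples above the normal fed ones. It rose with DDC (log2 fold change 1.13 ± 0.19, adjusted p = 0.00455). After median-ratio scaling the value was 0.46 (adjusted p = 0.0575), and leaving out either DDC fed sample gave an adjusted p of 0.0565 and 0.0548. At E18 Eif2d was 0.50 ± 0.19 (adjusted p = 0.0503) in TPM and -0.66 (adjusted p = 0.00789) with median-ratio scaling, so its direction at E18 depends on the scale. Eif2s1, the alpha subunit that the kinases phosphorylate, had 36.3 and 40.3 TPM with DDC, 68.1 and 73.7 TPM at E18 and 28.1 and 45.0 TPM in normal fed samples. Its DDC value was 0.10 ± 0.26 (adjusted p = 0.794). Of the 5 eIF2B subunits none passed with DDC in TPM, while 2 were higher without normal fed sample 0 and 2 lower on the median-ratio scale. The levels of Eif2b4 overlapped between all groups, at 33.8 and 41.6 TPM with DDC, 35.2 and 39.6 TPM at E18 and 42.7 and 33.5 TPM in normal fed samples. On the median-ratio scale Eif2b4 was -0.68 (adjusted p = 0.0240) with DDC, -1.19 (adjusted p = 0.000983) at E18 and 0.50 (adjusted p = 0.0371) for DDC fed against E18.

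Among the late factors Eif6 rose with DDC and Eif5a2 rose at E18. Eif6 was at 148 and 149 TPM with DDC, 76.3 and 79.6 TPM at E18 and 54.5 and 41.8 TPM in normal fed samples, so that the DDC fed samples stood above all others. It rose with DDC (log2 fold change 1.61 ± 0.20, adjusted p = 0.00133), and by 0.94 with median-ratio scaling, and it passed in all 15 alternatives run. At E18 the sign of Eif6 depended on the scale, with 0.70 ± 0.20 (adjusted p = 0.0181) in TPM and -0.48 (adjusted p = 0.0278) with median-ratio scaling. Without either DDC fed or either E18 sample the E18 call in TPM was lost too (adjusted p from 0.0566 to 0.106), as it was with the compared groups alone (adjusted p = 0.0550). The level of Eif6 over Eif5 was 1.05 and 1.08 with DDC, 0.373 and 0.401 at E18 and 0.342 and 0.299 in normal fed samples. Eif5a2 was at 0.183 and 0.138 TPM with DDC, 2.59 and 3.25 TPM at E18 and 0.0332 and 0.00552 TPM in normal fed samples. The E18 samples alone exceeded 1 TPM. It rose at E18 (log2 fold change 1.94 ± 0.12, adjusted p = 1.01e-05), also with median-ratio scaling (1.52), while with DDC it was 0.19 ± 0.12 (adjusted p = 0.253). With a pseudocount of 0.1 the values were 1.13 (adjusted p = 0.0141) with DDC and 4.66 (adjusted p = 8.68e-06) at E18, and with the compared groups alone the DDC value also passed (adjusted p = 0.0271). A pseudocount of 1 understates the change of so low a gene, and without an E18 sample it no longer entered the test. Eif5a was at 0.33 ± 0.25 (adjusted p = 0.331) with DDC and 1.06 ± 0.25 (adjusted p = 0.00703) at E18, and at -0.14 at E18 with median-ratio scaling. At E18 the ratio of Eif5a2 to Eif5a was 0.00234 and 0.00264.

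**Figure D5:**
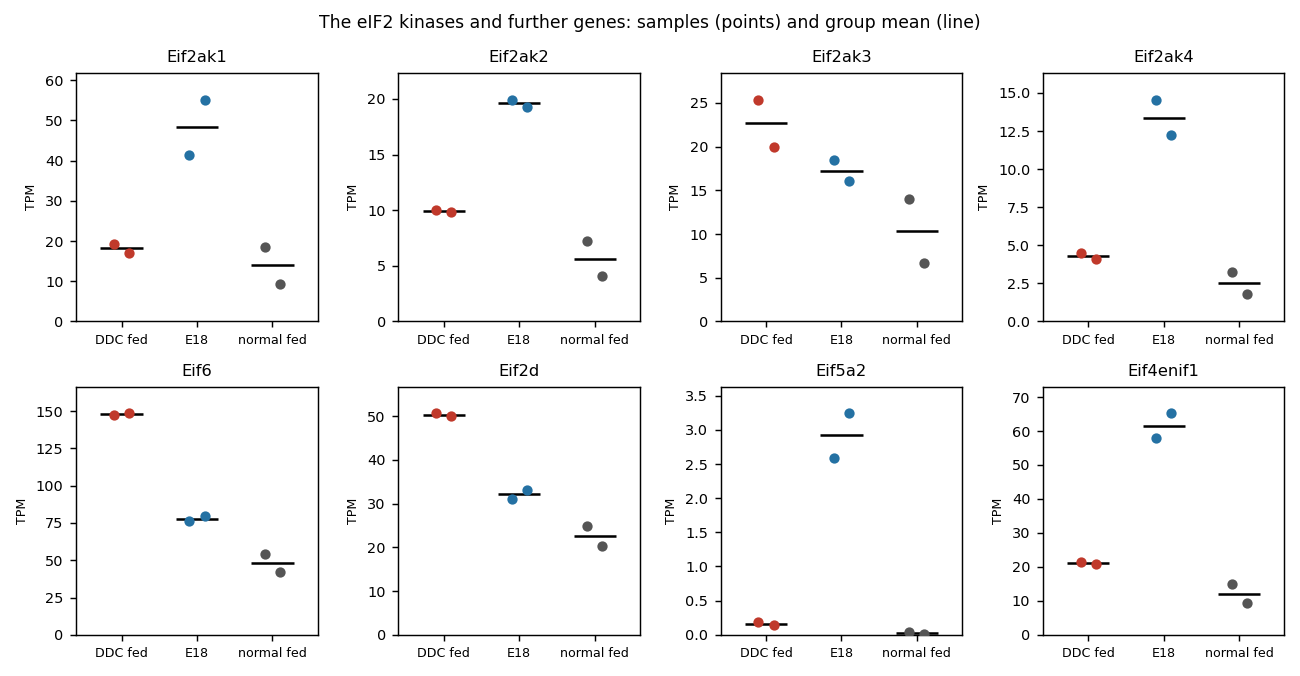
Points are samples and lines group means, in TPM from 0, for the 4 eIF2 kinases and for Eif6, Eif2d, Eif5a2 and Eif4enif1. The DDC fed points are the highest for Eif6 (148 and 149 TPM) and Eif2d (50.7 and 49.9 TPM), while the E18 points are the highest for Eif2ak1, Eif2ak2, Eif2ak4, Eif5a2 and Eif4enif1.

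Against normal fed adults, the E18 samples gave the larger number of calls in TPM. Of 53 members 40 were higher and Eif4ebp3 alone fell, and 12 did not pass. These are 75.5% and 1.89%, where 63% of all genes were higher and 12.7% lower (75.7% in either direction). Both comparisons with normal fed share the same 2 normal fed samples. The median log2 fold change was 1.06 for the members and 1.06 for all genes. With the typical gene set equal between samples 5 members were higher and 14 lower, beside 5456 and 4520 of all 14307 genes. The 5 that rose on both scales were Eif5a2, Eif4e3, Eif4enif1, Eif2ak4 and Eif2ak2, and Eif4ebp3 fell on both. Another 7 were higher in TPM and lower with median-ratio scaling: Eif1ad, Eif2b1, Eif2b2, Eif3g, Eif3j1, Eif3j2 and Eif6. Both E18 samples were above both normal fed samples for 49 members and below for 1, against 69.7% and 16.7% of all genes. Without E18 sample 0 the median was 1.08 for the members and 0.90 for all genes, and without sample 1 it was 0.98 and 0.91. Fewer members were then called higher, as among all genes. The drop was larger for the members, whose share called higher then no longer exceeded that of all genes. By adjusted p the first 8 of the 40 were Eif5a2, Eif4e3, Eif4enif1, Eif2ak4, Eif4e, Eif3f (1.51 ± 0.22, adjusted p = 0.000747), Eif4ebp1 and Eif2a (1.15 ± 0.18, adjusted p = 0.00105). Of these, Eif5a2 entered the test only through its E18 samples. Eif3f, an eIF3 subunit, was at 70.3 and 69.6 TPM with DDC, 150.2 and 174 TPM at E18 and 65.5 and 48.4 TPM in normal fed samples. Eif2a, a factor for initiation at other than AUG codons, was at 37.3 and 39.8 TPM with DDC, 68.2 and 69.8 TPM at E18 and 32.2 and 28.9 TPM in normal fed samples. With median-ratio scaling Eif3f was 0.32 (adjusted p = 0.120) and Eif2a -0.020 (adjusted p = 0.920).

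Subunits of the eIF3 complex lay within a few fold of each other in the DDC fed and E18 samples. Of 14 members 11 were higher at E18 in TPM and 3 did not pass, where 63% of all genes were higher. On the median-ratio scale none of the 14 was higher and 3 were lower, beside 5456 and 4520 of all 14307 genes. Fewer were higher in TPM once an E18 sample was left out, as among all genes. Of all genes 34.2% were higher with DDC in TPM, and 1700 of 14307 were lower on the median-ratio scale. Among the eIF3 members 0 of 14 passed with DDC in TPM and 3 were lower on the median-ratio scale. Without normal fed sample 0 some were called in either direction, and calls among all genes rose too. The loosely bound subunit eIF3j is encoded by Eif3j1 and Eif3j2, which were far below the others, at 10.9 and 10.5 TPM with DDC, 13.4 and 14.4 TPM at E18 and 10.4 and 7.34 TPM in normal fed samples for Eif3j1. The median of the other 12 was 98.2 and 99.6 TPM with DDC, 162 and 175 TPM at E18 and 88.5 and 74.5 TPM in normal fed samples. The highest of the 12 exceeded the lowest 2.74 and 3.11 times with DDC, 2.23 and 2.14 times at E18 and 2.52 and 7.46 times in the normal fed samples. The wide spread in normal fed sample 1 came with low values such as Eif3a (80.5 and 36.5 TPM in normal fed samples 0 and 1) and Eif3c (87.0 and 35.1 TPM), and high values such as Eif3h (165 and 262 TPM). In the DDC fed samples the same 3 genes had 82.4 and 84.3 TPM (Eif3a), 99.3 and 89.5 TPM (Eif3c) and 174 and 216 TPM (Eif3h).

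DDC fed adults against E18 tests the difference between these groups directly. The variance of a gene is shared by all 3 groups, so the wider spread of the normal fed samples enters these SE and p-values. Here 3 members, Eif6, Eif4e3 and Eif2d, were higher with DDC and 31 lower, that is 5.66% and 58.5%, where 17.7% of all genes were higher and 47% lower (64.7% in either direction). Both DDC fed samples lay above both E18 samples for 6 members and below for 44, against 28.2% and 61.8% of all genes. The median log2 fold change was -0.73 for the members and -0.55 for all genes. Eif6 had 0.92 ± 0.20 (adjusted p = 0.00706), Eif4e3 0.78 ± 0.23 (adjusted p = 0.0234) and Eif2d 0.63 ± 0.19 (adjusted p = 0.0246), and on the median-ratio scale these 3 kept their call with 1.42 for Eif6, 1.24 for Eif4e3 and 1.12 for Eif2d. Eif4e3 did not pass with a pseudocount of 0.1 (adjusted p = 0.0691) or an exon-length correction (adjusted p = 0.0899). None of the 3 passed once a DDC fed or an E18 sample was left out. The members' median ran from -0.81 to -0.72 in those fits, beside -0.59 to -0.37 for all genes. In each of those fits the share of members called lower was below that of all genes, unlike in the full fit. With the compared groups alone 4 members were higher and 41 lower, beside 3284 and 7895 of all 14307 genes. With median-ratio scaling 7 were higher with DDC and 10 lower, beside 3925 and 4945 of all 14307 genes. The added rises were Eif1a, Eif2ak3, Eif2b4 and Eif4ebp3. The 8 lower members with the smallest adjusted p were Eif5a2 (-1.75 ± 0.12, adjusted p = 2.81e-05), Eif4enif1 (-1.50 ± 0.25, adjusted p = 0.00183), Eif2ak4 (-1.44 ± 0.25, adjusted p = 0.00230), Eif4a3, Eif4e (-1.09 ± 0.20, adjusted p = 0.00291), Eif3f, Eif3d and Eif3k. Among them Eif5a2 entered the test only through its E18 samples.

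Of these 8, Eif5a2, Eif4enif1, Eif2ak4, Eif4a3, Eif4e, Eif3f and Eif3d were lower on both scales. Eif4a3, the helicase of the exon junction complex, was at 53.0 and 58.4 TPM with DDC, 117 and 129 TPM at E18 and 59.1 and 46.3 TPM in normal fed samples, with -1.13 ± 0.21 (adjusted p = 0.00291). Eif3d, a subunit that can bind the cap of some mRNAs, was at 63.4 and 70.8 TPM with DDC, 133 and 148 TPM at E18 and 69.9 and 59.1 TPM in normal fed samples, with -1.05 ± 0.20 (adjusted p = 0.00327). For Eif3f the value was -1.20 ± 0.22 (adjusted p = 0.00301). For Eif3k, a peripheral subunit, it was -1.22 ± 0.24 (adjusted p = 0.00417), and -0.71 (adjusted p = 0.0964) with median-ratio scaling. Among the kinases Eif2ak1 was at -1.35 ± 0.33 (adjusted p = 0.0102) and Eif2ak2 at -0.91 ± 0.27 (adjusted p = 0.0212), while Eif2ak3 did not pass (0.37 ± 0.34, adjusted p = 0.364) and was 0.85 (adjusted p = 0.0264) with median-ratio scaling. The adjusted p of Eif2ak1 was 0.0587 without DDC fed sample 1 and 0.0795 without E18 sample 1, and Eif2ak2 was -0.43 (adjusted p = 0.0801) with median-ratio scaling and did not pass without any 1 of the DDC fed and E18 samples (from 0.0967 to 0.104).

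The 4E-BPs did not pass between DDC fed and E18 samples in TPM, with -0.087 ± 0.20 (adjusted p = 0.722) for Eif4ebp1, -0.74 ± 0.37 (adjusted p = 0.122) for Eif4ebp2 and 0.41 ± 0.23 (adjusted p = 0.164) for Eif4ebp3. Eif4ebp3 was 0.91 (adjusted p = 0.0109) with median-ratio scaling. The scaffolds Eif4g1 (-0.37 ± 0.49, adjusted p = 0.530) and Eif4g3 (-0.54 ± 0.40, adjusted p = 0.275) did not pass. With the compared groups alone Eif4ebp2 and Eif4g3 passed and Eif4g1 did not, and the same held without either normal fed sample. Eif4g2 (-0.89 ± 0.25, adjusted p = 0.0181), Eif4a1 (-0.95 ± 0.22, adjusted p = 0.00795), Eif4a2 (-0.73 ± 0.25, adjusted p = 0.0385) and Eif5a (-0.73 ± 0.25, adjusted p = 0.0382) were lower with DDC in TPM. With median-ratio scaling their values were -0.38 for Eif4g2, -0.43 for Eif4a1, -0.22 for Eif4a2 and -0.21 for Eif5a, and none passed. None of Eif4g2, Eif4a2 and Eif5a passed in TPM without any 1 of the DDC fed and E18 samples, and Eif4a1 passed only without E18 sample 0, whereas all 4 passed without either normal fed sample.

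Other genes of translation come from lists written with earlier results known. They are given beside the shares of all genes, of which 34.2% were higher with DDC and 63% at E18. On the median-ratio scale 2907 of all 14307 genes were higher and 1700 lower with DDC, and 5456 and 4520 at E18. Of 14 elongation and termination factors tested 1 rose with DDC (7.14%), Gspt2, a second gene for the release factor eRF3 (2.88 ± 0.18, adjusted p = 0.000114), and 10 were higher at E18 (71.4%), led by Gspt2 (2.41 ± 0.18), Eef2k, the kinase that inhibits eEF2 (3.01 ± 0.34), and Eef1g (1.66 ± 0.21). After median-ratio scaling 1 was higher and 2 lower with DDC, 2 were higher and 4 lower at E18, and Eef1g was at 0.47 at E18. Of 23 further initiation proteins 3 rose with DDC (13.0%): Impact, an inhibitor of GCN2 signalling (1.79 ± 0.19, adjusted p = 0.000705), Ppp1r15a, the stress-induced subunit of the eIF2 phosphatase (1.88 ± 0.28, adjusted p = 0.00256), and Mknk2, a kinase of eIF4E (1.57 ± 0.29, adjusted p = 0.00600). Ppp1r15a had 31.0 and 54.4 TPM with DDC, 192 and 191 TPM at E18 and 10.4 and 10.5 TPM in normal fed samples. At E18 15 of the 23 were higher (65.2%) and 1 lower, led by Ppp1r15a (4.07 ± 0.28), Bzw2 (2.89 ± 0.22) and Mknk1, another kinase of eIF4E (2.38 ± 0.20). With median-ratio scaling this list had 3 higher and 5 lower with DDC, and 5 higher and 7 lower at E18, with Impact, Ppp1r15a and Mknk2 among those higher with DDC. Without normal fed sample 0 more genes of both lists were higher with DDC, as among all genes.

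Genes of the mTORC1 pathway, which controls the 4E-BPs, had 7 of 25 members higher (28%, against 34.2% of all genes) and 0 lower with DDC (limma; 4 and 3 with median-ratio scaling). The 3 leading ones were Rragd, a Rag GTPase (5.34 ± 0.18, adjusted p = 9.85e-06), and the amino acid sensing genes Castor1 (1.29 ± 0.14, adjusted p = 0.000710) and Sesn3 (1.36 ± 0.28, adjusted p = 0.0102). Rragd was at 46.0 and 41.6 TPM with DDC, 1.57 and 1.18 TPM at E18 and 0.126 and 0.0852 TPM in normal fed samples. At E18 13 of 25 were higher (52.0%, against 63% of all genes), led by Rragb, Mlst8 (2.19 ± 0.20) and Sesn1 (2.35 ± 0.24). Rragb was listed at 0 in both normal fed samples and had 1.84 and 2.26 TPM at E18. It entered the test only through its E18 samples. Median-ratio scaling gave 6 higher and 9 lower. ATF4 is the factor translated when eIF2 is phosphorylated, and its list of 23 targets also holds Atf4 itself. Of these 23 genes 11 rose with DDC (47.8%, against 34.2% of all genes). They were led by Vldlr (3.13 ± 0.21, adjusted p = 0.000130), Ddit4 (2.72 ± 0.20, adjusted p = 0.000192) and Atf3 (4.19 ± 0.46, adjusted p = 0.000764). With median-ratio scaling 7 were higher and 2 lower (limma), Atf4 (-0.77, adjusted p = 0.0268) and Chac1 (-0.98, adjusted p = 0.0495). At E18 19 were higher (82.6%, against 63% of all genes) and 1 lower, led by Phgdh (6.29 ± 0.20), Psat1 (7.28 ± 0.24) and Asns (6.64 ± 0.22). Those 3 enzymes of serine and asparagine synthesis were at most 2.10 TPM in the adult samples. Asns had 1.28 and 2.10 TPM with DDC, 124 and 119 TPM at E18 and 0.310 and 0.156 TPM in normal fed samples. Counts for DDC followed single samples in both lists, as among all genes. More genes were higher without normal fed sample 0, and fewer without either DDC fed sample. On the median-ratio scale 10 ATF4 targets were higher at E18 and 4 lower.

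Between DDC fed and E18 samples these lists had more members lower with DDC in TPM, as did all genes (17.7% higher, 47% lower). Elongation and termination factors had 0 higher and 8 lower of 14, further initiation proteins 2 and 9 of 23, mTORC1 genes 2 and 6 of 25, and ATF4 targets 4 and 10 of 23 (limma). On the median-ratio scale the counts were 2 higher and 4 lower, 4 and 6, 10 and 3, and 6 and 7. For the mTORC1 list the balance thus turned with the scale. Of all 14307 genes 3925 were higher and 4945 lower on that scale.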

How the data were processed

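RNA of hepatocytes was measured in 6 samples, 2 in each of 3 groups, and the 6 columns were assigned to groups by name, since their numbers (0 and 1) differ from those of the labels. The deposited TPM values cover 48432 genes and have the same total in each sample. The submitters' processing notes name Trimmomatic, Picard 1.119, STAR 2.4.2a, Cuffdiff 2.2.1, HTSeq and DESeq2, besides GRCm38 (mm10) as the build, and assign none of them a step. Which of them made the TPM table, and on which annotation, was not given in the sources, and read depth is unknown. Identifiers were matched to GENCODE M21 (48053 of 48432). The 14307 genes that reached 1 TPM in 2 or more samples were fitted as log2(TPM + 1) with limma 3.58.1 in R 4.3.3, 1 mean per group over all 6 samples, 3 residual degrees of freedom and a trend of variance with level. Two-sided p-values had Benjamini-Hochberg adjustment over all genes tested and a threshold of 0.05. The fit was tested on simulated data. Median-ratio scaling divided each sample by its median ratio to the geometric mean over genes above 0 in all samples. In each direction of a comparison all called members were named where there were 12 or fewer, otherwise the 8 with the smallest adjusted p, along with a chosen set of kinases, inhibitors, scaffolds, helicases and late factors. Of other lists the 3 called genes with the smallest adjusted p were named. Eif4e2, Eif2s1, Eif2d, Eif2b4, Eif3a, Eif3c and Eif3h are shown beyond this rule in some comparisons, chosen after their values were seen. Members and lists were chosen with earlier results of these data known. Each result was recomputed with other pseudocounts, filters and scalings, with a replicate block, with the compared groups alone and without each sample.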

Additional observations from a re-analysis of the deposited data

How the results depend on the processing

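Median-ratio scaling moved every count of calls by over 1.5 times. For DDC fed against normal fed it gave 3 higher and 9 lower (6 and 1 in TPM), beside 2907 and 1700 of all 14307 genes. For E18 against normal fed it gave 5 and 14 (40 and 1), beside 5456 and 4520. For DDC fed against E18 it gave 7 and 10 (3 and 31), beside 3925 and 4945. It changed the sign of 27 members for DDC fed against normal fed, 27 for E18 against normal fed and 8 for DDC fed against E18, of which 23, 6 and 8 were called on neither scale. Those called on 1 or both scales, with their median-ratio log2 fold changes, were Eif3j2 -0.64, Eif3d -0.62, Eif4a3 -0.59, Eif3g -0.59 for DDC fed against normal fed and Eif4e2 -0.83, Eif5 -0.76, Eif2d -0.66, Eif2b5 -0.66, Eif1 -0.55, Eif2b1 -0.55, Eif3g -0.51, Eif1ad -0.49, Eif3j1 -0.48, Eif6 -0.48, Eif4a2 -0.47, Eif2b2 -0.47, Eif3e -0.46, Eif3j2 -0.45, Eif1b -0.37, Eif2b3 -0.29, Eif2s1 -0.20, Eif5a -0.14, Eif3d -0.071, Eif3k -0.050, Eif2a -0.020 for E18 against normal fed. The cause of the shift of the typical gene was not tested. Leaving out 1 sample at a time gave 2 to 26 higher and 1 to 5 lower for DDC fed against normal fed, 25 to 46 and 1 to 1 for E18 against normal fed, and 0 to 4 and 8 to 41 for DDC fed against E18. A pseudocount of 0.1 or 5, no filter, a mean of at least 5 TPM, a fit of the compared groups alone, an exon-length correction and protein-coding genes alone (the last 2 chosen after seeing the data) kept all counts within 1.5 times. Eif4e3, Eif6 and Eif4ebp3 with DDC passed in all 15 alternatives. Eif2ak3 and Eif4enif1 with DDC did not pass with no filter (adjusted p = 0.109 and 0.0959) or with the compared groups alone (adjusted p = 0.121 and 0.124). With a pseudocount of 5 the log2 fold change of Eif4e3 was 2.09 with DDC and 1.46 at E18. The replicate block, with the column number as a term, gave 8 higher and 1 lower for DDC, beside 5102 and 498 of all 14307 genes. For E18 it gave 43 and 1, beside 9157 and 1921, and for DDC fed against E18 3 and 31, beside 2686 and 6801. The columns share only a number: same-numbered differences correlated at 0.23 (normal fed and DDC fed), 0.14 (normal fed and E18) and 0.06 (DDC fed and E18) across genes. No read counts are given, so the error of low values such as those of Eif5a2 is unknown.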
